A study of Homo sapiens with 9 samples.

Results

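The 9 genes described here serve the presentation of peptides on major histocompatibility complex (MHC) molecules: HLA-B, HLA-C, B2M, TAP1, TAPBP and PSMB9 of the class I route and CD74, HLA-DRA and HLA-DMA of the class II route. They were taken by gene symbol, which gave 17 of the 47323 probes of an Illumina expression array. The cells were OVISE, a human clear cell carcinoma line of the ovary in which ARID1A is mutated. ARID1A belongs to SWI/SNF, a complex that remodels chromatin. Every group grew as 3-dimensional cultures in Matrigel, a gel of basement membrane proteins. The DMSO group received the vehicle, the ARID1A group doxycycline at 1 µg/mL, which induces wild-type ARID1A, and the GSK126 group 5 µM GSK126, an inhibitor of the histone methyltransferase EZH2. Each group had 3 arrays, 1 from each of the labelled batches 1, 2 and 3. The ARID1A group is the only one that received doxycycline, so the drug and the restored protein cannot be told apart. All cells come from 1 line. Nothing in the labels says that the replicates came from separate cultures, so the p-values reflect a spread between arrays that may be technical. In bulk RNA, fewer cells with a transcript and less of it per cell cannot be told apart.

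In the class I route, the proteasome cuts cytosolic proteins into peptides, the TAP transporter carries them into the endoplasmic reticulum, and tapasin helps load them onto a heavy chain paired with beta-2-microglobulin. In the class II route, the invariant chain CD74 guards the groove of the HLA-DR dimer until HLA-DM exchanges its remnant for a peptide from the endosome. Class I is made by most nucleated cells. Class II is typical of professional antigen-presenting cells, but epithelial and carcinoma cells can also make it, under the transactivator CIITA.

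Of the 47323 probes, 21317 to 22517 per array had a detection p below 0.05, the detection p being the authors' software's test against negative controls. Values below are normalised log2 intensities, and 23014 probes detected on at least 3 of the 9 arrays were tested. ARID1A probe ILMN_1734496 was detected on 3 of 3 arrays of the ARID1A group and on none of the DMSO or GSK126 arrays, and its level was at least 3.74-fold above DMSO (limma adjusted p = 0.000319). The other ARID1A probe, ILMN_1797341, differed by −0.13 (limma adjusted p = 0.507). Of 5 epithelial and clear cell marker genes with a probe, 4 were detected, while the keratin KRT18 was not above background on any array. The summed raw intensity of all 5, over 10 probes, was 211242 to 214285 in DMSO, 221631 to 226947 with ARID1A and 217047 to 230368 with GSK126. Large parts of it were EPCAM probes ILMN_2160210 (67720 to 70542 per array) and ILMN_3249032 (65225 to 70713). The leukocyte markers PTPRC, CD3E and CD1C were below the detection limit on all 9 arrays. MS4A1 was not kept, with probe ILMN_2401714 detected on 2 of 3 GSK126 arrays and on no DMSO or ARID1A array. Over all 8 leukocyte genes with a probe, 4 were kept, with ITGAM and CD79A detected on 9 arrays, CD14 on 8 and LYZ on 7. The summed raw intensity of the 18 probes of these 8 genes was 5493 to 5634 in DMSO, 5343 to 5557 with ARID1A and 5520 to 5737 with GSK126. Both sums are not corrected for background and include probes not above it. The median raw intensity of all probes was 316.6 to 348.5 per array.

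Of the 17 probes, 15 passed the filter on dim probes, with at least 1 for each of the 9 genes. The exceptions were HLA-C probe ILMN_2150787 (raw intensity 171.2 to 224.3) and CD74 probe ILMN_1761464 (194.6 to 236.9), not above background on any array. They are not tested. Because the filter looks at detection alone, a probe present in 1 group only would also have passed. TAPBP probe ILMN_1782851 was detected on 6 of 9 arrays, namely 3 of 3 in DMSO, 1 of 3 with ARID1A and 2 of 3 with GSK126. The other 14 kept probes were detected on all 9.

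**Figure D1:**
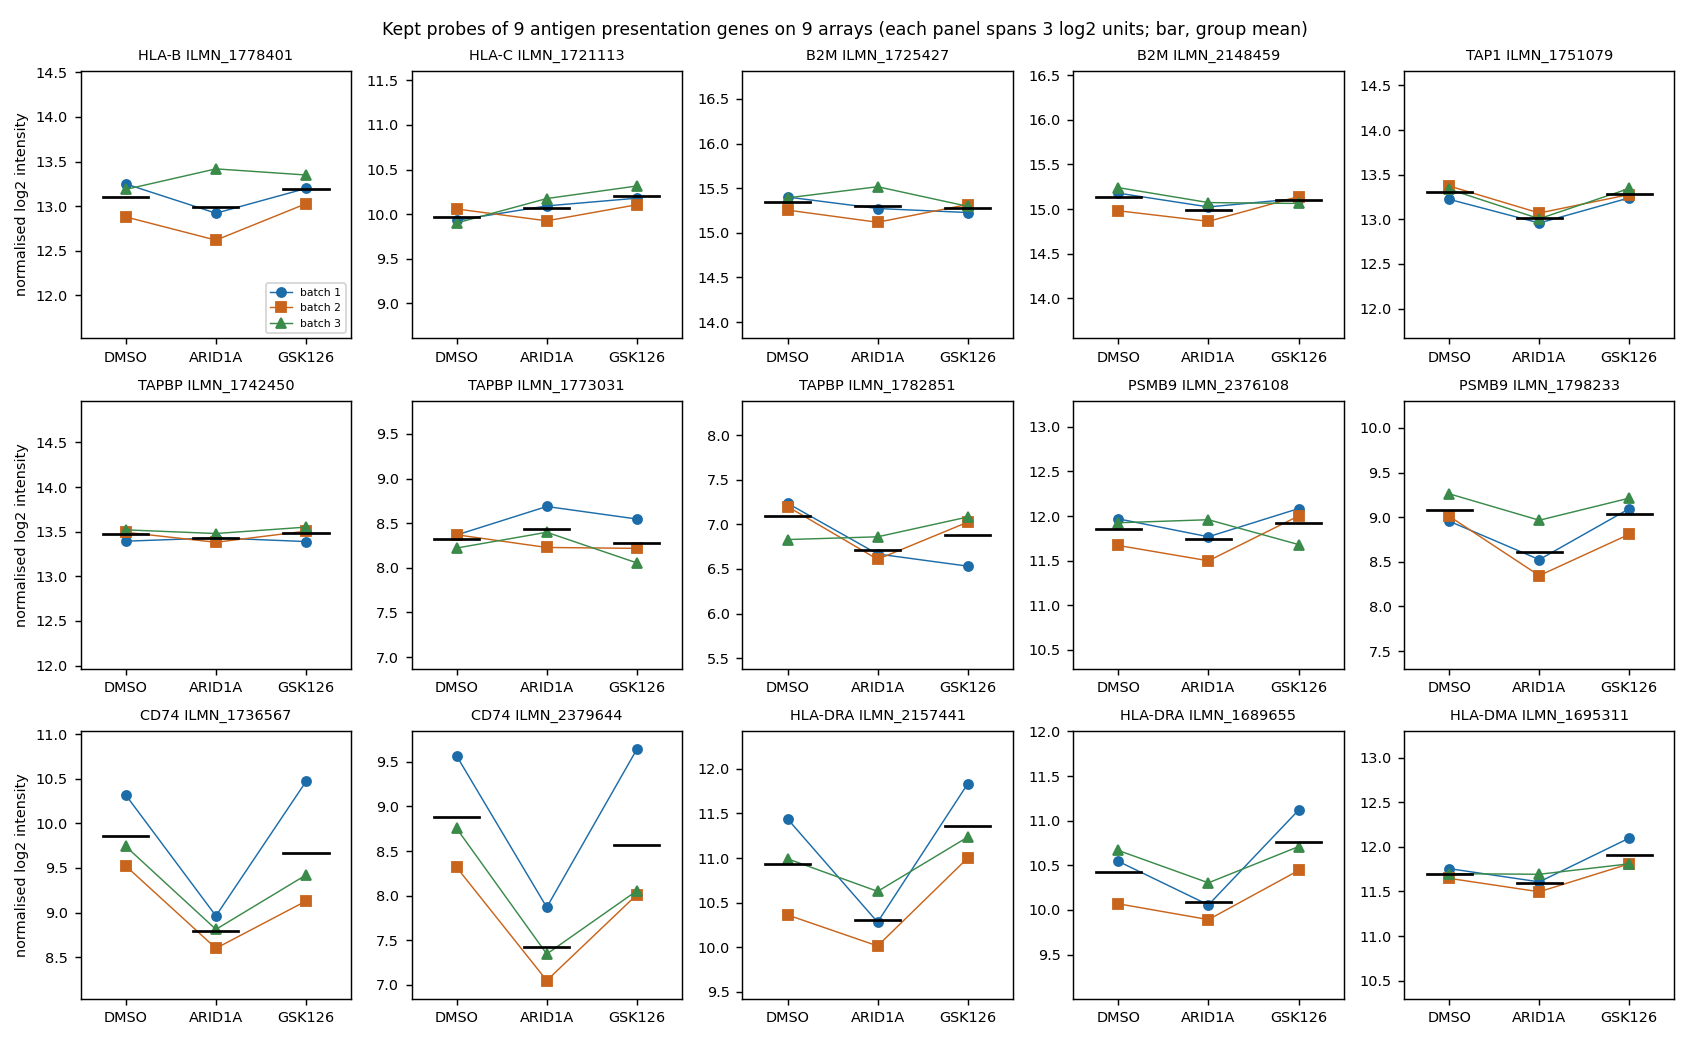
Normalised log2 intensity of the 15 kept probes in each group, with arrays of 1 labelled batch joined by a line and black bars for group means (n = 3). CD74 is lowest with ARID1A in every batch on both probes, while the B2M panels are nearly flat.

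CD74, the invariant chain, showed the widest difference between ARID1A and DMSO among the 9 genes. Probe ILMN_1736567 read 10.32, 9.52 and 9.74 in DMSO batches 1, 2 and 3, 8.96, 8.60 and 8.81 with ARID1A, and 10.47, 9.13 and 9.42 with GSK126. In raw intensity these were 1490, 968.0 and 1070 in DMSO, 739.9, 648.0 and 647.9 with ARID1A, and 1666, 848.8 and 1024 with GSK126. The 3 ARID1A arrays were the lowest of all 9 and did not overlap either other group, and batch 1 was the highest within every group. Probe ILMN_2379644 read 9.57, 8.32 and 8.75 in DMSO, 7.87, 7.05 and 7.35 with ARID1A, and 9.64, 8.01 and 8.06 with GSK126, with the same lack of overlap.

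The difference of CD74 between ARID1A and DMSO was −1.07 (SE 0.33, 3 arrays against 3) on ILMN_1736567 and −1.46 (SE 0.46) on ILMN_2379644. Neither passed in the fit without batch (limma adjusted p = 0.154 and 0.168). When the batch entered as a replicate block, both fell (limma adjusted p = 0.0389 and 0.021), and within batches 1, 2 and 3 the differences were −1.35, −0.92 and −0.93 on the first probe and −1.70, −1.27 and −1.41 on the second. The blocked call was lost without any 1 DMSO or ARID1A array or without any 1 batch. Most blocked calls were lost there: over all probes 627 fell to 43 to 196 without 1 such array and to 0 to 4 without a batch. The loss is therefore not particular to CD74. Of 12 settings without 1 array or 1 batch, which also leave out GSK126 arrays, the blocked call held in 1 for ILMN_1736567 and in 3 for ILMN_2379644. The adjusted p over all alternatives with the block ran from 0.00255 to 0.207 and from 0.00225 to 0.169.

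The 250 bases before the start of CD74 are shown because it is the only member that passed against DMSO in either fit. They lie at chr5:150412911-150413160 on the minus strand of GRCh38.p14 (RefSeq), with the gene at chr5:150401639-150412910. Capitals mark the letters CCAAT, the core of the Y box of class II promoters, searched on both strands and found once, at 53 to 49 bases before the start.
CD74: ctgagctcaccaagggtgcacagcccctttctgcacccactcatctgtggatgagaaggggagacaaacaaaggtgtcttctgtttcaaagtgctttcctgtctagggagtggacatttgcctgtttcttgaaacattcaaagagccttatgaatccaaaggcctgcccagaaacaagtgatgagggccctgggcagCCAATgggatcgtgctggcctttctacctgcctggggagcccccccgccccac
CCAAT was in 32% of 35116 such windows of all genes, so its presence is a description of the letters only.

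HLA-DRA, the alpha chain of HLA-DR, was lowest with ARID1A and highest with GSK126 in each batch. Probe ILMN_2157441 read 11.44, 10.36 and 10.99 in DMSO, 10.28, 10.02 and 10.63 with ARID1A, and 11.83, 11.00 and 11.23 with GSK126. Probe ILMN_1689655 read 10.54, 10.07 and 10.67 in DMSO, 10.06, 9.89 and 10.30 with ARID1A, and 11.12, 10.44 and 10.71 with GSK126. On both probes every GSK126 array lay above every ARID1A array, while DMSO overlapped both groups. HLA-DMA, a chain of the peptide exchanger HLA-DM, read 11.76, 11.65 and 11.70 in DMSO, 11.61, 11.50 and 11.69 with ARID1A, and 12.10, 11.81 and 11.81 with GSK126. Here the GSK126 arrays lay above all others.

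The order ARID1A below DMSO below GSK126 in all 3 batches, noticed in these data, was shown by 3 of 15 member probes (both of HLA-DRA and that of HLA-DMA) against 2.2% of all kept probes. For GSK126 against ARID1A, HLA-DRA was 1.05 (SE 0.30) apart on ILMN_2157441, which passed with the replicate block and not in the fit without it (limma adjusted p = 0.135 without it and 0.0466 with it). Its other probe was 0.67 (SE 0.21) apart (limma adjusted p = 0.164 without the block and 0.0614 with it). For CD74 the difference was 1.15 (SE 0.46) on ILMN_2379644 (limma adjusted p = 0.282 without the block and 0.0397 with it) and 0.88 (SE 0.33) on ILMN_1736567 (0.242 and 0.0638). Neither blocked call held in any of 12 settings without an array or a batch, where calls over all probes fell from 523 to 0 to 198. HLA-DMA differed by 0.31 (SE 0.11, limma adjusted p = 0.209).

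**Figure D2:**
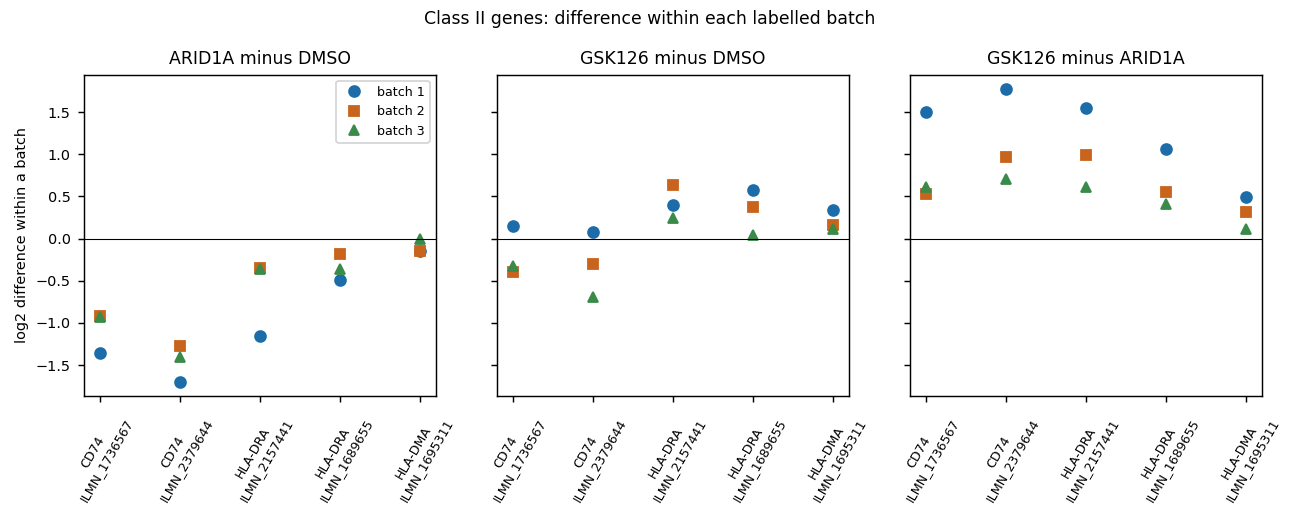
Log2 difference between 2 groups within each labelled batch for the 5 kept probes of CD74, HLA-DRA and HLA-DMA. All points of the ARID1A minus DMSO panel are below 0 and all of GSK126 minus ARID1A above 0, with batch 1 the largest in the latter for every probe.

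Against DMSO, neither HLA-DRA nor HLA-DMA passed in either comparison, with or without the block. Among alternatives that join the block to another choice, HLA-DRA probe ILMN_2157441 passed with ARID1A in 2 (lowest limma adjusted p = 0.0296). With ARID1A, HLA-DRA differed by −0.62 (SE 0.30) on ILMN_2157441 and by −0.34 (SE 0.21) on ILMN_1689655 (limma adjusted p = 0.341 and 0.453), and HLA-DMA by −0.10 (SE 0.11, 0.68). With GSK126 the differences were 0.42 (SE 0.30) and 0.33 (SE 0.21) for HLA-DRA (limma adjusted p = 0.707 and 0.665) and 0.21 (SE 0.11) for HLA-DMA (0.602). CD74 under GSK126 stood at −0.19 (SE 0.33) and −0.31 (SE 0.46), with 95% intervals of −0.93 to 0.56 and −1.36 to 0.74, so a change of CD74 by GSK126 in either direction was not resolved by 3 arrays against 3. The comparisons share arrays, so their values are not independent of each other.

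The window before HLA-DMA is shown beside that of CD74, as the other class II member with a RefSeq promoter entry in the table used. It lies at chr6:32953098-32953347 on the minus strand, with the gene at chr6:32948618-32953097, and CCAAT occurs on its reverse strand at 79 to 75 and at 49 to 45 bases before the start (capitals).
HLA-DMA: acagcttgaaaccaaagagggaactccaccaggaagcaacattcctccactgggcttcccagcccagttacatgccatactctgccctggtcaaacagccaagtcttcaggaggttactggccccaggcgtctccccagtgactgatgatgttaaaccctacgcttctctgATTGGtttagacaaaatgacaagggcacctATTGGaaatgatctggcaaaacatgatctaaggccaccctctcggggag

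TAP1, a subunit of the peptide transporter, was lowest with ARID1A. Its probe ILMN_1751079 read 13.22, 13.37 and 13.34 in DMSO, 12.96, 13.07 and 13.01 with ARID1A, and 13.24, 13.28 and 13.35 with GSK126. The ARID1A arrays lay below both other groups without overlap. The difference between ARID1A and DMSO was −0.30 (SE 0.08, limma adjusted p = 0.129, and 0.0885 with the block), and within batches it was −0.27, −0.30 and −0.33. Between GSK126 and DMSO it was −0.02 (SE 0.08, limma adjusted p = 0.958), with a 95% interval of −0.21 to 0.17.

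PSMB9, the interferon-inducible proteasome subunit that replaces PSMB6, had 2 kept probes. Probe ILMN_1798233 read 8.96, 9.01 and 9.26 in DMSO, 8.53, 8.35 and 8.97 with ARID1A, and 9.10, 8.81 and 9.21 with GSK126. Probe ILMN_2376108 read 11.97, 11.67 and 11.93 in DMSO, 11.77, 11.50 and 11.96 with ARID1A, and 12.08, 12.00 and 11.68 with GSK126. On both, ARID1A and DMSO overlapped. The difference with ARID1A was −0.46 (SE 0.18, limma adjusted p = 0.236, and 0.0715 with the block) on the former and −0.11 (SE 0.15, 0.763) on the latter.

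TAP1 and PSMB9 are neighbours that are read in opposite directions, with 487 bases between their starts (TAP1 at chr6:32845209-32853704, PSMB9 at chr6:32854192-32859851). Their upstream windows, chr6:32853705-32853954 on the minus strand and chr6:32853942-32854191 on the plus strand, are shown because they overlap by 13 bases and hold 1 CCAAT in common. Capitals mark CCAAT, the interferon response core (TTTC, 2 bases of any kind, TTTC) and the NF-kappaB motif (GGG, 2 bases of any kind, TTTCC) on either strand. In TAP1, 2 matches to the interferon core overlap each other, at 134 to 125 and 128 to 119 bases before the start, and the NF-kappaB motif lies at 72 to 63.
TAP1: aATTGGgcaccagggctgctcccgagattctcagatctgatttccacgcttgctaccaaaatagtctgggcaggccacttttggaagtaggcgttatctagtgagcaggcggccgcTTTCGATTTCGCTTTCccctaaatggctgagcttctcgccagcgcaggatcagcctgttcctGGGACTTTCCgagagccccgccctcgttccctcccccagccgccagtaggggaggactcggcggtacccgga
PSMB9: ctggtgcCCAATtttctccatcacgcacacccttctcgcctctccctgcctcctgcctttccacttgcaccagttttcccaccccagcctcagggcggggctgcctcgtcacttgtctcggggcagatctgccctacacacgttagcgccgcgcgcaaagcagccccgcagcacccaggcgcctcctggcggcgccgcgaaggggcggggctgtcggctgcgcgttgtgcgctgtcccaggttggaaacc
The interferon core was in 3.02% and the NF-kappaB motif in 1.73% of the 35116 windows, and each was in 3 of the 9 windows of members, where TAP1 has 2 windows and HLA-DRA none.

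No probe of the class I chains HLA-B, HLA-C and B2M or of tapasin passed in any comparison, with or without the block. HLA-B read 13.25, 12.88 and 13.19 in DMSO, 12.92, 12.62 and 13.42 with ARID1A, and 13.20, 13.03 and 13.35 with GSK126. Its spread over batches within a group (SD 0.40 with ARID1A) was wider than its difference between ARID1A and DMSO of −0.12 (SE 0.20, limma adjusted p = 0.811), which was negative in batches 1 and 2 and 0.23 in batch 3. HLA-C, on probe ILMN_1721113, read 9.93, 10.06 and 9.90 in DMSO, 10.09, 9.93 and 10.17 with ARID1A, and 10.18, 10.11 and 10.32 with GSK126. The GSK126 arrays of HLA-C lay above the DMSO arrays, by 0.24 (SE 0.10), which did not pass (limma adjusted p = 0.525). Between GSK126 and ARID1A, HLA-C differed by 0.14 (SE 0.10, limma adjusted p = 0.594).

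B2M, the light chain of class I, read 15.12 to 15.52 over all 9 arrays on ILMN_1725427 and 14.86 to 15.24 on ILMN_2148459. Its differences from DMSO were −0.05 (SE 0.11) and −0.15 (SE 0.10) with ARID1A and −0.07 (SE 0.11) and −0.03 (SE 0.10) with GSK126. TAPBP, which encodes tapasin, read 13.38 to 13.55 on its brightest probe, ILMN_1742450, with differences of −0.04 (SE 0.09) with ARID1A and 0.01 (SE 0.09) with GSK126. Its 95% interval with ARID1A was −0.23 to 0.16. The dimmer TAPBP probes differed from DMSO in the ARID1A group by 0.12 (SE 0.15) on ILMN_1773031 and by −0.38 (SE 0.17) on ILMN_1782851, which was detected on 1 of 3 ARID1A arrays. None of these passed (limma adjusted p from 0.314 to 0.978).

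**Figure D3:**
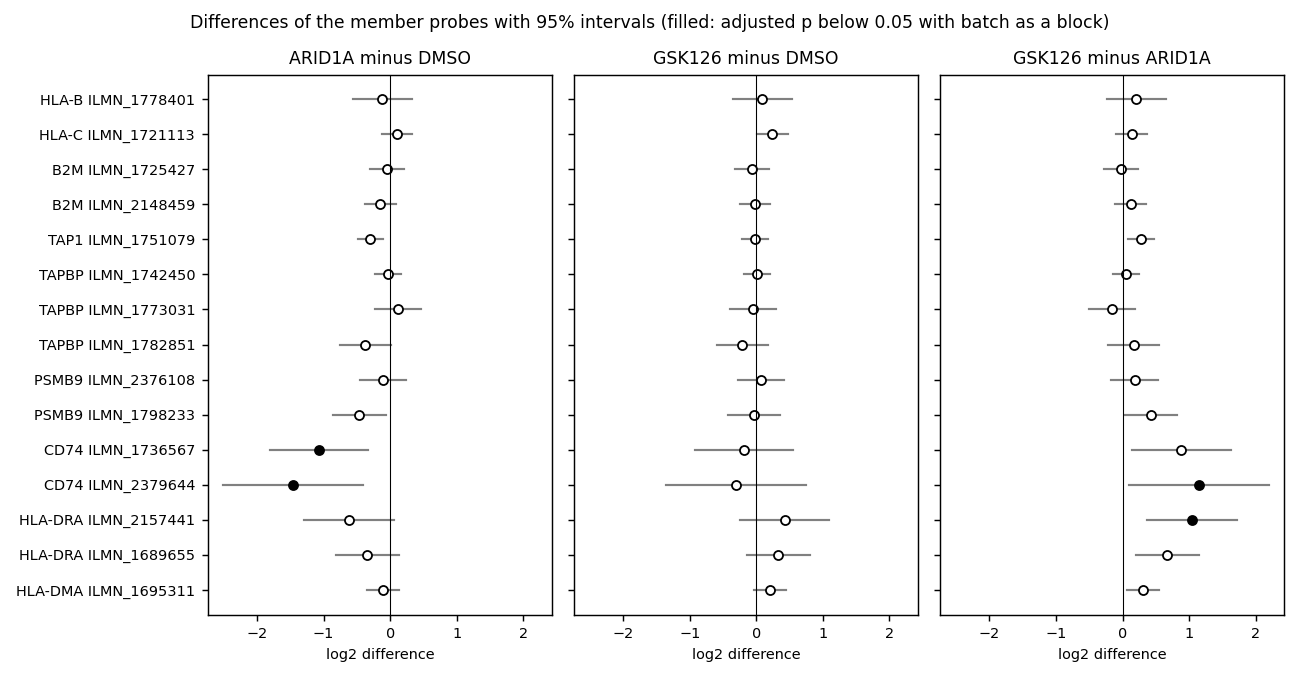
Log2 difference with its 95% interval for the 15 kept probes in the fit without batch, in 3 panels for the 3 comparisons. Filled points mark an adjusted p below 0.05 with batch as a block: both CD74 probes for ARID1A minus DMSO, and 1 probe each of CD74 and HLA-DRA for GSK126 minus ARID1A.

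Counted over the 15 kept probes, 0 passed for ARID1A against DMSO by limma, where 1.44% of all 23014 probes passed, and 4 had an unadjusted p below 0.05, all lower, where 16.5% of all probes had one and 7.8% in that direction. With the block 2 passed, both of CD74 and lower, against 2.72% of all probes and 0.965% in that direction. In all 3 batches 8 of 15 were lower and 0 higher, against 23.3% and 21.4% of all probes. The ARID1A and DMSO arrays did not overlap for 3 probes, all lower, against 11.1% of all probes lower and 11.5% higher. Over the 9 genes by their brightest kept probe the median difference was −0.11, with 8 of 9 negative, beside −0.00 and 50.6% negative over 12698 genes.

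For GSK126 against DMSO 0 of 15 passed, as did 0% of all probes by limma, and 1 had an unadjusted p below 0.05, in the higher direction, against 9.34% of all probes and 4.81% in that direction. In all 3 batches 4 were higher and 0 lower, against 19.1% and 19% of all probes, and the arrays did not overlap for 2 probes, both higher, against 7.89% higher and 7.33% lower. The block also gave 0, with 1 at an unadjusted p below 0.05 against 12.8%. The median over the 9 genes was 0.07, beside −0.00 over all genes. For GSK126 against ARID1A 0 of 15 passed, where 1.28% of all probes passed, and 7 had an unadjusted p below 0.05, all higher, against 15.2% of all probes and 7.87% in that direction. With the block 2 passed, both higher, against 2.27% of all probes and 1.08% in that direction. In all 3 batches 8 were higher and 1 lower, against 19.9% and 19.6%. The arrays did not overlap for 6 probes, all higher, against 10.2% of all probes higher and 9.97% lower. The median over the 9 genes was 0.21, beside −0.01 over all genes. Probes of a gene are not independent of each other.

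Batches were also tested. With group in the fit, 0 of the 15 probes passed limma's F test of the batch term, against 0.00869% of all probes, and the smallest adjusted p was 0.152, for CD74 probe ILMN_2379644.

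Of 50 other genes of the pathway, 47 had a probe and 38 a kept one. They were counted by the brightest kept probe of each. Against DMSO, 0 of the 38 passed with ARID1A and 0 with GSK126, with and without the block. Over all probes 1.44% and 0% passed without the block, and 2.72% and 0% with it. Between GSK126 and ARID1A, 1 of the 38 passed with or without the block, against 1.28% of all probes without it and 2.27% with it. The 1 gene was HLA-DOB, a chain of the HLA-DM inhibitor HLA-DO. HLA-DOB read 8.28, 8.61 and 8.65 in DMSO, 8.18, 8.11 and 8.05 with ARID1A, and 9.03, 8.70 and 9.18 with GSK126, so the 3 groups did not overlap. It was 0.85 (SE 0.15) higher with GSK126 than with ARID1A (limma adjusted p = 0.0351, and 0.042 with the block). Leaving out 1 array gave adjusted p-values from 0.0286 to 0.12, and the call held in 2 of 9 such settings, without DMSO replicate 1 or GSK126 replicate 2. In these 9 settings 91 to 174 of all probes passed, against 295 with all arrays. The blocked call held in 0 of 12 settings without an array or a batch, where 0 to 198 of all probes passed.

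By the brightest kept probe of each, the 5 other class II chains had a median of −0.40 for ARID1A against DMSO (4 of 5 negative). For GSK126 against ARID1A it was 0.59 (4 of 5 positive). The 2 kept HLA-DRB4 probes disagreed on the latter. The brightest, ILMN_1752592, averaged 9.14 in DMSO, 8.72 with ARID1A and 9.31 with GSK126. Probe ILMN_1679617, detected on all 9 arrays, averaged 7.86, 7.78 and 7.45. Of 10 such chains with a probe, HLA-DOA, HLA-DPB1, HLA-DQB1, HLA-DRB1 and HLA-DRB5 were not above background on any array and were not tested. HLA-DPA1, a chain of HLA-DP named after its values were seen, was detected on 0 of 3 ARID1A arrays, 2 of 3 DMSO arrays and 3 of 3 GSK126 arrays. It was at least 1.98-fold higher with GSK126 than with ARID1A, which did not pass (limma adjusted p = 0.138). Also named after their values were seen, HLA-DMB, the partner chain of HLA-DMA, was at 0.30 (SE 0.15, limma adjusted p = 0.363) and HLA-DRB3 at −0.02 (SE 0.12) with ARID1A. Chains of HLA-DR and HLA class I are close paralogues, and whether a probe reads only its named gene was not tested.

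**Figure D4:**
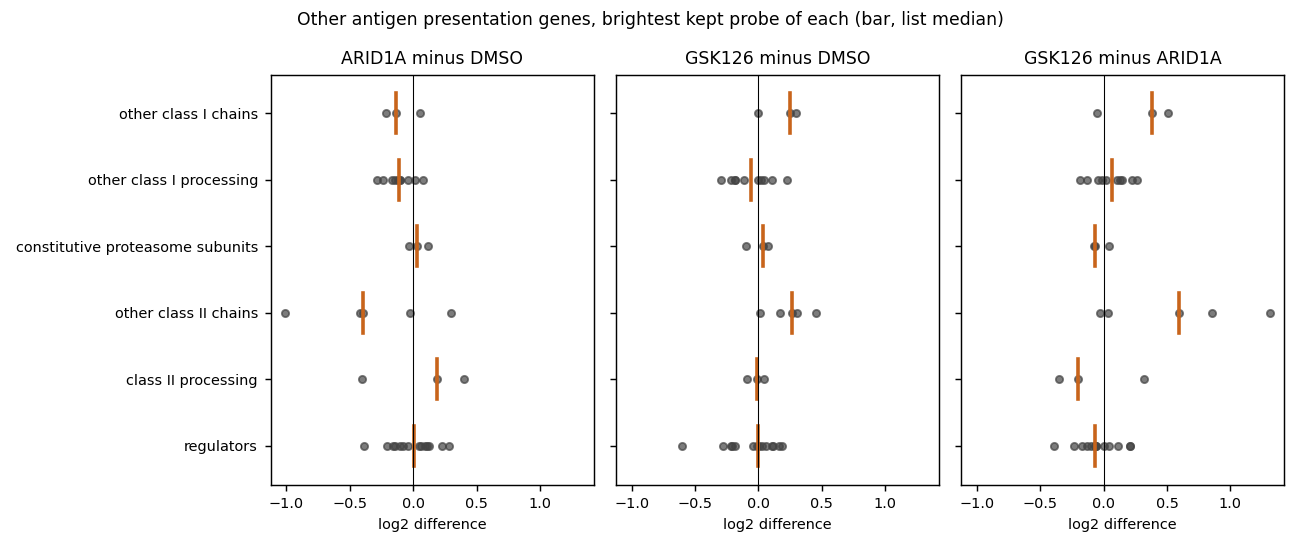
Log2 difference of each other pathway gene by its brightest kept probe, grouped by role, with list medians as bars, in 3 panels for the 3 comparisons. The outermost class II point for ARID1A minus DMSO and for GSK126 minus ARID1A is HLA-DPA1, a fitted value against a group below background. The other class II chains run from −0.42 (HLA-DRB4) to 0.30 (HLA-DMB) and from −0.03 (HLA-DMB) to 0.85 (HLA-DOB), and the constitutive proteasome subunits from −0.03 to 0.11 and from −0.08 to 0.04.

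Of class I processing genes, 10 of 11 were kept. Here and for the regulators below, the smallest p was sought among the brightest kept probes of the genes. With ARID1A it was that of the chaperone CANX (−0.24, SE 0.10, limma adjusted p = 0.284). With GSK126 it was that of CALR (−0.30, SE 0.10, limma adjusted p = 0.439). Between the treatments it was that of the immunoproteasome subunit PSMB8 (0.26, SE 0.11, limma adjusted p = 0.288). The dimmer CANX probe, ILMN_1762825, averaged 11.76 in DMSO, 11.47 with ARID1A and 11.45 with GSK126. For ARID1A against DMSO the 3 kept PSMB8 probes gave −0.33 (SE 0.11) on ILMN_1767006, −0.18 (SE 0.14) on ILMN_1747195 and −0.04 (SE 0.11) on ILMN_2390299. The non-classical chain HLA-G had the smallest p of 3 class I chains in each comparison, at 0.51 (SE 0.13, limma adjusted p = 0.104) between GSK126 and ARID1A. The constitutive subunits PSMB5, PSMB6 and PSMB7 differed by −0.10 to 0.11 from DMSO. Of class II processing genes, the thiol reductase IFI30 stood at −0.41 (SE 0.10, limma adjusted p = 0.102) with ARID1A and the protease LGMN at 0.40 (SE 0.10, 0.106).

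Of the regulators, 14 of 17 were kept. CIITA, the class II transactivator, and NLRC5, that of class I, did not exceed the background anywhere. Their single probes, ILMN_1773363 and ILMN_1716704, had raw intensities of 242.6 to 286.3 and 234.0 to 299.7. Whether the transcripts were absent or the probes fail to read them was not tested. IRF1, an interferon-induced activator of class I genes, stood at −0.39 (SE 0.12, limma adjusted p = 0.169) with ARID1A and −0.18 (SE 0.12, 0.696) with GSK126. The smallest p of a regulator with GSK126 was that of the cytokine receptor kinase JAK2 (−0.60, SE 0.20, limma adjusted p = 0.417), and between the treatments that of RFX5, a subunit of the factor that binds class II promoters (0.21, SE 0.08, 0.282). The keratin KRT8, an epithelial marker, rose by 0.46 (SE 0.09, limma adjusted p = 0.0474) with ARID1A. It differed by −0.60 between GSK126 and ARID1A (limma adjusted p = 0.0213). By the brightest kept probe of each, it was the only 1 of 4 kept epithelial and clear cell marker genes that passed. Over all probes 1.44% and 1.28% passed. The 4 genes ran from −0.02 to 0.46 in the former comparison and from −0.60 to −0.0047 in the latter. Without 1 array the former call of KRT8 was lost in each of 9 settings (limma adjusted p from 0.0559 to 0.154). There 86 to 270 of all probes passed, against 332 before. The latter call held in 4 of 9 (limma adjusted p from 0.0291 to 0.0791). The part of KRT8 in the class II differences was not tested.

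Profiles were compared by the mean absolute difference of log2 values, each centred on its own mean over the 9 arrays, among 12698 genes. Nearest to HLA-DRA was HLA-DRB6, a pseudogene of the HLA-DR beta chain, at 0.10, where the median gene was at 0.498. DLL1 at 0.153 and PRPH at 0.194 followed, the latter detected on 5 of 9 arrays. Nearest to CD74 were STMN3 at 0.182, SAA1 at 0.183 and CCM2L at 0.185, with a median gene at 0.530. Nearest to HLA-B were HEATR3 (0.0747), B3GNT2 (0.0792) and OOEP (0.0875), with a median gene at 0.242. Nearest to TAP1 were NUP50 (0.0449), PROSER1 (0.0467) and GCNT3 (0.0471), with a median gene at 0.185.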

How the data were processed

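The deposited table gave a linear intensity for 47323 probes on 9 arrays, which the submitters' processing notes link to GenomeStudio (version not stated), each with a deposited detection p-value. The authors' value table, intensities with equal quantiles in all columns, served as an alternative. Intensities were corrected, quantile normalised and put on the log2 scale with neqc (offset 16) of limma 3.58.1 in R 4.3.3, from the deposited values. The 23014 probes detected (p below 0.05) on 3 or more arrays entered 1 limma model of 3 group means (6 residual degrees of freedom), with two-sided tests and the Benjamini-Hochberg threshold of 0.05 over all of them. Every adjusted p is of this model unless it is called blocked, from a model with batch as a replicate block (4 residual degrees of freedom). The labels give each replicate number a batch, which pairs the samples. Deviations from group means correlated at 0.0722 to 0.247 for the 9 same-batch pairs and −0.168 to 0.0273 for the 18 others. Where a probe was not above background on any array of a group, "at least N-fold" sets the brighter mean against the dimmest signal above background on those arrays. Symbols of 30074 probes were updated through Entrez identifiers with RefSeq names. Named genes were all members, called members of the other lists or else that with the smallest p, CIITA, IRF1 and NLRC5 (a further regulator is not reported here), and the 3 nearest profiles of 4 members. HLA-DPA1, HLA-DMB, HLA-DRB3 and HLA-DRB4 were named after their values were seen, as were listed genes without a kept probe. Members, lists and tests were chosen with earlier results of these data known. The script was tested on simulated data. The number of arrays limits the precision.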

Additional observations from a re-analysis of the deposited data

How the results depend on the processing

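Alternatives that join the replicate block to another choice were added after seeing the data. For ARID1A against DMSO, 332 probes passed. The count was 627 with the replicate block, 722 without background correction, 737 in the authors' value table, 178 without a filter on dim probes, 559 with the stricter filter (detection p below 0.01 on all 3 arrays of a group) and 129 with only the groups compared. It was 774 with the block and 1 probe per gene, 1686 with the block and no background correction and 1763 with the block in the authors' table. For GSK126 against ARID1A, 295 passed, and in the same order 523, 712, 731, 144, 541 and 107, then 530, 1468 and 1494, and 495 with the block and no normalisation. For GSK126 against DMSO 0 passed by limma (2149 at an unadjusted p below 0.05), 1 without background correction, 1 in the authors' table, and 38 and 55 there with the block. Leaving out 1 array gave 86 to 270 for ARID1A against DMSO and 91 to 174 for GSK126 against ARID1A, and with the block, batches included, 0 to 314 and 0 to 198. The batch term passed for 2 probes, and for 344, 370, 1, 1, 60 and 41 without background correction, in the authors' table, without normalisation, without the filter, with the stricter filter and with 1 probe per gene.

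Of the members, 0 of 15 probes passed for ARID1A against DMSO, with 2 under the block, 1 with the block and 1 probe per gene, 5 with the block and no background correction, 5 with the block in the authors' table, 2 with the block and no normalisation and 1 with the block and no filter. Without arrays the number was 0 to 2. For GSK126 against ARID1A it was 0, with 2 under the block, 1 without background correction and 1 in the authors' table (HLA-DRA probe ILMN_2157441, limma adjusted p = 0.0434 and 0.0413), and with the block 2, 5, 5 and 5 for 1 probe per gene, no background correction, the authors' table and no normalisation, 0 for no filter on dim probes, and 0 to 0 without arrays. For GSK126 against DMSO 0 member probes passed in every setting run. The batch term passed for 2 member probes without background correction (344 over all) and 2 in the authors' table (370).

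Without normalisation the median of all probes moved to 0.12 for GSK126 against DMSO and to 0.11 for GSK126 against ARID1A, where the share of calls that were higher went from 36.9% to 64.5%. Under that setting, with or without the block, small differences of GSK126 from DMSO turned sign for B2M (0.13 and 0.064), PSMB9 (0.090), TAP1 (0.11), TAPBP (0.075) and KRT8 (0.0017), as did that of GSK126 from ARID1A for B2M (0.14). Without arrays or a batch, uncalled differences crossed 0 for ARID1A against DMSO in TAPBP (−0.0069 to 0.25), B2M (−0.15 to 0.045), HLA-B (−0.34 to 0.064) and PSMB9 (−0.26 to 0.0088). For GSK126 against DMSO they did so in CD74 (−0.58 to 0.085 and −0.85 to 0.034), TAPBP (−0.024 to 0.060, −0.18 to 0.062 and −0.44 to 0.039), HLA-B (−0.026 to 0.17), PSMB9 (−0.079 to 0.26 and −0.13 to 0.079), TAP1 (−0.067 to 0.013) and B2M (−0.12 to 0.049). For GSK126 against ARID1A they did so in B2M (−0.13 to 0.085). Of 1491 member values recomputed, 1395 kept their direction and side of the threshold, 41 passed where the first fit did not, and 55 turned sign. The cause was not tested.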
